A study of Mus musculus with 10 samples.

Results

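After 1 day of forskolin, MAP adipocytes were compared with vehicle-treated Control adipocytes across every deposited ATAC-seq peak. The comparison used 4 of the series' 10 libraries, S5 and S6 (FSK1D) and S1 and S2 (Control), and covered 122984 peaks, of which 118962 had enough counts to be tested. ATAC-seq uses a transposase that inserts adapters into open DNA, so the count of a peak reports how accessible that stretch of chromatin is, not how much RNA is made from it. MAP cells are an immortalized mouse adipocyte progenitor line, and the labels group 2 libraries under each of 5 conditions: Control (vehicle), forskolin for 4 h, 1 day and 3 days, and rosiglitazone for 3 days. All groups were differentiated alike, with insulin, isobutylmethylxanthine, dexamethasone and rosiglitazone followed by insulin and rosiglitazone. Control cells had therefore also been exposed, during differentiation, to a PPARγ agonist and to an inhibitor of phosphodiesterases. Forskolin was then added to the mature adipocytes, at a concentration that the labels do not give, to induce browning. Nothing in the labels ties libraries to cultures, so p-values measure the spread between these libraries, which may be technical. Nuclei were isolated and sorted on a DNA stain, and came from 1 immortalized line.

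Forskolin binds adenylyl cyclase directly and raises cAMP without a receptor. In adipocytes cAMP is the messenger of the β-adrenergic receptors: it activates protein kinase A, which drives lipolysis and phosphorylates CREB, and CREB switches on genes such as Ppargc1a and, in brown and beige fat, Ucp1. Phosphodiesterases break cAMP down again, and several of their genes are themselves induced by cAMP.

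The FSK1D libraries were deeper, with 17002986 and 18935287 counts in peaks, against 10410233 and 13055443 in Control. The 10 most counted peaks held 3.81% and 3.48% of the counts in FSK1D and 5.88% and 5.10% in Control. Across peaks, which are not independent replicates, log2(CPM + 0.5) correlated at r = 0.974 between S5 and S6, at 0.961 between S1 and S2, and at 0.921 to 0.927 between FSK1D and Control libraries. All 10 adipocyte markers, among them Adipoq, Plin1, Lpl and Pparg, had tested peaks, and their summed level was 973 to 975 CPM in FSK1D and 1128 to 1226 CPM in Control.

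After 1 day 15368 peaks had risen and 11705 had fallen (22.8% of tested peaks, 12.9% risen and 9.84% fallen; edgeR quasi-likelihood F test, Benjamini-Hochberg adjusted p below 0.05). Among called peaks, with TMM factors, the rises were larger. The median log2 fold change was 1.22 for risen and −0.61 for fallen peaks, and 9984 risen but 3209 fallen peaks changed at least 2-fold. Smaller changes can be called at stronger peaks, as the fallen ones were, so these sizes are not compared at like level. Risen peaks had a median level of 4.88 CPM in FSK1D against 2.04 CPM in Control and a median width of 428 bp. Fallen peaks were stronger and wider, with a median of 11.3 CPM in FSK1D against 17.5 CPM in Control and a width of 701 bp. Uncalled peaks were the narrowest, at 334 bp, with a median level of 2.28 CPM over the libraries. The balance of calls depended on how libraries were scaled. With TMM factors 56.8% of peak calls were rises, with library size alone 75.9%, with offsets trended by level 57.5%, with RLE size factors 52.6%, and with TMM factors from peaks away from gene ends 44.9%. A peak or gene called in the same direction under all 5 scalings is therefore marked as such below: 11587 risen peaks (9.74%) and 4930 fallen peaks (4.14%) met this.

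**Figure D1:**
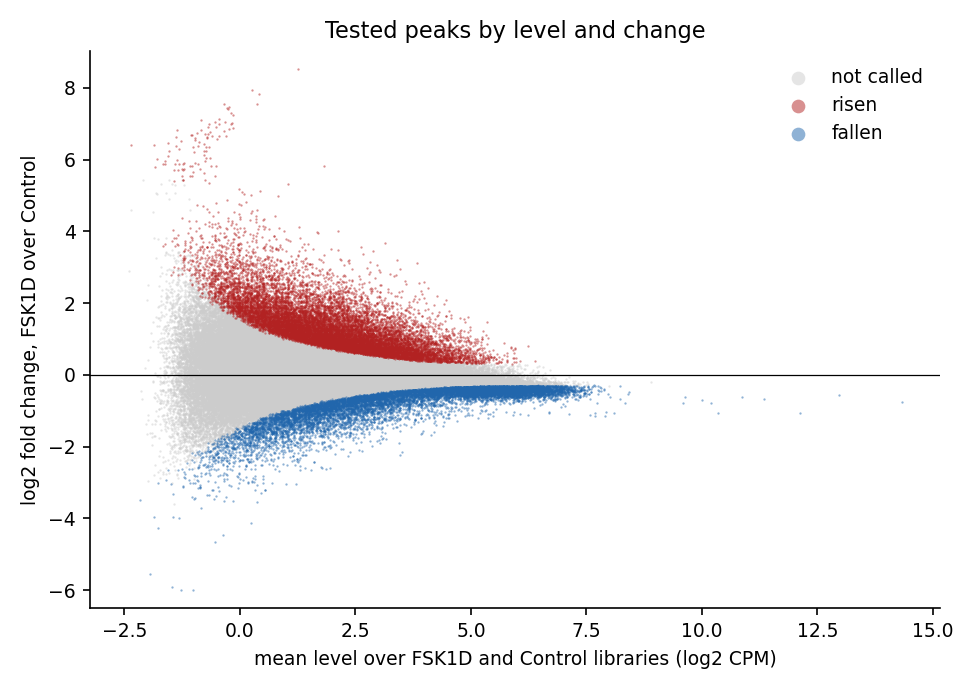
Each point is a tested peak, with its mean level over all 10 libraries (log2 CPM) on the x axis, although the axis title names only FSK1D and Control. The y axis gives its log2 fold change, FSK1D over Control. Risen peaks (red, 15368) spread upward from low and middle levels, and fallen peaks (blue, 11705) reach to the highest levels with smaller changes. Fitted values of peaks near 0 counts in Control, at the upper left, depend on the prior count.

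The sequences just upstream of start sites whose peaks changed are printed first, because they differed in a feature that the tests did not use. RefSeq sequence of GRCm38.p6 was at hand for 21263 start sites of 17492 protein-coding genes, and 11968 of these start sites lay in or close to a tested peak. The 250 bases before each were searched on both strands for letters of known elements. AP-1, bound by FOS and JUN proteins, was TGANTCA. C/EBP, bound by a family that includes the adipogenic factor C/EBPα, was TTGCNNAA. CRE, the element that CREB binds, was TGACGTCA, and its shorter form, which every full CRE also holds, was TGACG. The E-box was CACGTG. NF-Y was CCAAT. SP1 was GGGCGG. ETS was CCGGAAG. The TATA box was TATAAA. The ERR and DR1 elements of nuclear receptors were searched as well and were in 0.699% and 0 of the risen start sites. The 4 windows below belong to the risen start sites with the smallest p among those called under all 5 scalings that hold an AP-1 match. Capitals mark every motif match, and each sequence runs 5′ to 3′ towards the start site.
Hal: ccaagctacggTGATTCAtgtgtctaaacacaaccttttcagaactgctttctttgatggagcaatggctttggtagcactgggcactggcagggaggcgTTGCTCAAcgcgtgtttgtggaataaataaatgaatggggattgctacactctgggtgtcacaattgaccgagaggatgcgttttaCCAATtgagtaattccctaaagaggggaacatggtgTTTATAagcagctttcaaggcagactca
Ttc41: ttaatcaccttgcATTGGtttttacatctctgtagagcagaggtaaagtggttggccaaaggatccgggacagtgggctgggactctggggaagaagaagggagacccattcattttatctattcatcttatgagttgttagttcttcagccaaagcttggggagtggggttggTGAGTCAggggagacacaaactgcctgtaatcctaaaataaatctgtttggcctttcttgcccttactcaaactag
Trem2: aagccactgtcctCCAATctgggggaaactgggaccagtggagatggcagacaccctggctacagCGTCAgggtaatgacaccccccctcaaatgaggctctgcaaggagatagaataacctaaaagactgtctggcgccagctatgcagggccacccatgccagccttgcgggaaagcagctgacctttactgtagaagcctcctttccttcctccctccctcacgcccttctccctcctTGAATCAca
Hrh1: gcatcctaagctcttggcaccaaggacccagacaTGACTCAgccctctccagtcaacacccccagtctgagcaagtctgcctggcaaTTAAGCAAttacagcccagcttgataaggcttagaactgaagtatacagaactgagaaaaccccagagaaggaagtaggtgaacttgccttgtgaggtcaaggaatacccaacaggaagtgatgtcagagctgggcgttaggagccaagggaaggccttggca

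The Hal window (chr10:93488518-93488767, plus strand) precedes the gene of histidine ammonia-lyase and holds AP-1 239 bases before the start site. Its peak stood at 30.7 and 24.3 CPM in FSK1D and 8.58 and 10.7 CPM in Control (log2 1.5, SE 0.15, edgeR adjusted p = 1.2e-12). The Ttc41 window (chr10:86712515-86712764, plus strand) has AP-1 76 bases before the start site, and its peak stood at 8.05 and 9.83 CPM in FSK1D and 2.73 and 2.56 CPM in Control (log2 1.76). At Trem2, which encodes a lipid-sensing receptor of myeloid cells (chr17:48346151-48346400, plus strand), the match starts 9 bases before the start site and the peak held 16.9 and 16.0 CPM in FSK1D and 6.86 and 9.58 CPM in Control (log2 0.99). At Hrh1, the gene of the histamine H1 receptor (chr6:114458272-114458521, plus strand), the peak held 6.76 and 6.42 CPM in FSK1D and 2.42 and 2.40 CPM in Control (log2 1.45). At these 4 start sites, which were chosen as called, both FSK1D libraries lay above both Control libraries. With 2 libraries against 2 that is common: the groups did not overlap in 60.5% of all tested peaks.

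These 4 were chosen for the match, and the whole set shows how common it was. AP-1 letters were in 42 of the 143 risen start sites (29.4%), in 2.83% of the 4906 fallen ones and in 5.64% of the 6919 uncalled ones, against 6.13% of all start sites in the table. C/EBP letters were in 21.7% of risen, 6.38% of fallen and 7.46% of uncalled start sites, against 9.09% of all. The opposite held for SP1, a GC-rich element of many housekeeping promoters, with 28.0% of risen, 72.0% of fallen and 55.7% of uncalled start sites and 42.6% of all. CRE letters were in 0.699% of risen start sites (1 of 143), 3.00% of fallen and 2.72% of uncalled ones, and in 1.92% of all. The shares of all include start sites without a tested peak. Of the 11968 start sites with a tested peak, 4.77% held AP-1, 7.19% C/EBP, 62.0% SP1 and 2.81% CRE letters. Base composition moved with these shares: median GC content was 52.0% at risen, 64.0% at fallen and 58.8% at uncalled start sites. Among start sites below the median GC content, AP-1 letters were still in 31.5% of 111 risen ones, in 4.66% of 1823 fallen ones and in 7.29% of 4031 uncalled ones. Under the call by all 5 scalings AP-1 was in 28.9% of 97 risen and 3.02% of 927 fallen start sites. A match is a run of letters and says nothing of whether a factor was bound, and several start sites of a gene can share 1 peak (the 143 belong to 130 genes).

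**Figure D2:**
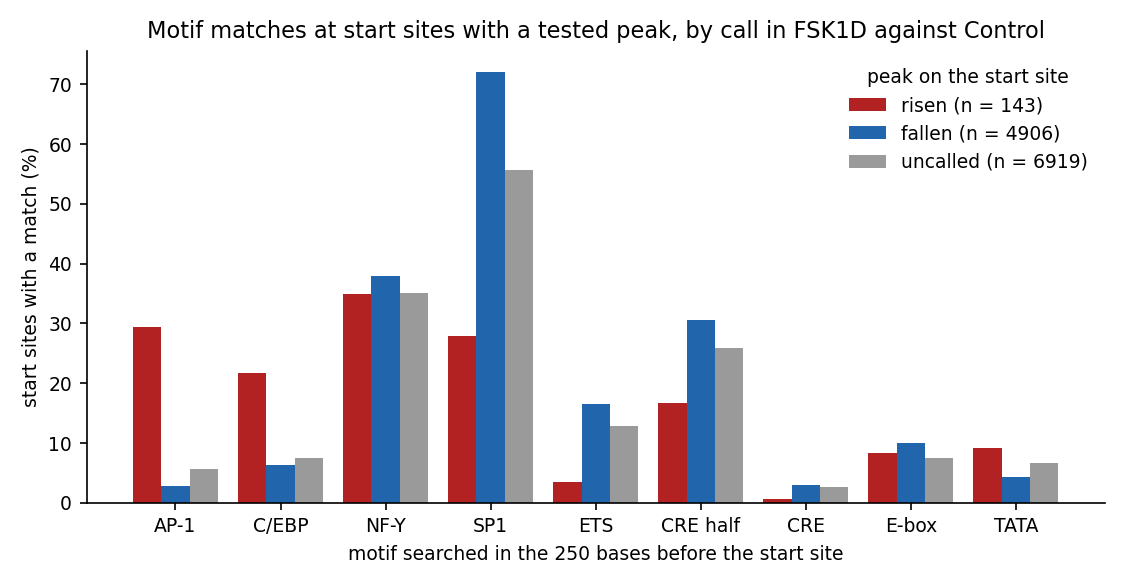
Bars give the share of start sites (y axis, %) whose 250 upstream bases hold each motif (x axis). Start sites lay in or close to risen (red, n = 143), fallen (blue, n = 4906) and uncalled (grey, n = 6919) peaks. AP-1 and C/EBP letters are most frequent at risen start sites, SP1 and ETS letters at fallen ones.

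The start sites of genes whose function is central to the treatment follow, with the same marking. Pde4b, whose product degrades cAMP, and Lcn2, which encodes the secreted lipid carrier lipocalin 2, are shown as risen start sites. Adipoq (adiponectin), Fasn (fatty acid synthase) and Tef (a clock-output transcription factor) are shown as fallen ones.
Pde4b: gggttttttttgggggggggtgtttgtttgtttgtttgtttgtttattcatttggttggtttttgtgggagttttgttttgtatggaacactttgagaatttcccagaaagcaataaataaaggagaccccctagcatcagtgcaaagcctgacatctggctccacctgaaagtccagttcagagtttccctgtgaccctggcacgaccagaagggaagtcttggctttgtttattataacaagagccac
Lcn2: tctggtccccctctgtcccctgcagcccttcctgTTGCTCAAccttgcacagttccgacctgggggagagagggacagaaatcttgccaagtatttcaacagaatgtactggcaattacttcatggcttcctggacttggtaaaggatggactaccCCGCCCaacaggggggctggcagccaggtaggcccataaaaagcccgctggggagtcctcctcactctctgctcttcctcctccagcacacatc
Adipoq: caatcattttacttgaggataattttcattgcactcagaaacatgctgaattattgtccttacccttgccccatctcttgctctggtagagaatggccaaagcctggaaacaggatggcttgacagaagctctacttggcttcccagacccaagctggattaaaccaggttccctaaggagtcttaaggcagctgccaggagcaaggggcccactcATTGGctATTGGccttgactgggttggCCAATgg
Fasn: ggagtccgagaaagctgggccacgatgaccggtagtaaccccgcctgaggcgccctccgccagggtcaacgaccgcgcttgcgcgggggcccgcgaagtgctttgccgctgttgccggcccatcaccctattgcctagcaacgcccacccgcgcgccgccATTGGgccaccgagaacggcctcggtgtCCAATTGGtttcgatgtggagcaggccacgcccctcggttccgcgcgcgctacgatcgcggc
Tef: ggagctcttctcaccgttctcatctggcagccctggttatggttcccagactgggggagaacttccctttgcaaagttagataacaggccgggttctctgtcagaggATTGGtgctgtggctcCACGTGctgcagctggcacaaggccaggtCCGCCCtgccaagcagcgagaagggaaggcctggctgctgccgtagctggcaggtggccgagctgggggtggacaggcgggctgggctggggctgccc

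The Pde4b window (chr4:102569810-102570059, plus strand) belongs to a start site inside the gene and holds none of the searched motifs. Its peak stood at 32.1 and 35.8 CPM in FSK1D and 17.8 and 18.7 CPM in Control (log2 0.90, SE 0.132, edgeR adjusted p = 2.07e-07). The Lcn2 window (chr2:32387740-32387989, minus strand) has a C/EBP match 216 bases before the start site, and its peak stood at 6.37 and 6.32 CPM in FSK1D and 2.42 and 2.31 CPM in Control (log2 1.42). The Adipoq window (chr16:23146286-23146535, plus strand) holds no CpG and 3 NF-Y matches within 34 bases of the start site. Its peak, on the start site, stood at 14.3 and 16.3 CPM in FSK1D and 30.0 and 32.7 CPM in Control (log2 −1.04, SE 0.135, edgeR adjusted p = 7.37e-09). The Fasn window (chr11:120824548-120824797, minus strand) holds 33 CpGs and 3 NF-Y matches, and its peak stood at 60.9 and 72.7 CPM in FSK1D and 108 and 114 CPM in Control (log2 −0.74). The Tef window (chr15:81802423-81802672, plus strand) carries an E-box, the element of CLOCK and BMAL1, 127 bases before the start site, and its peak stood at 48.8 and 54.7 CPM in FSK1D and 82.8 and 83.1 CPM in Control (log2 −0.68). All 5 peaks were called under all 5 scalings.

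With TMM factors, position separated fallen from risen peaks. Of the 9598 peaks lying on a listed RefSeq start site 39.3% fell and 1.24% rose, whereas of the 30533 peaks over 100 kb from a listed one 7.06% fell and 15% rose. Between these, from 1 kb outward, the share that rose stayed between 13.2% and 14.6% and the share that fell between 6.88% and 8.51%. Start sites were listed for 17492 of 21887 protein-coding genes, so peaks on an unlisted one can count as distant. The Adrb3 gene-end peak, for example, was 1831502 bp from the nearest listed start site. Of the 11360 peaks outside genes and over 100 kb from any gene end, 6.73% fell and 14.9% rose. Of fallen peaks 39.2% lay within 1 kb of either end of a gene, against 3.99% of risen and 11.8% of uncalled ones. Peaks on a start site are also the strongest (median 30.6 CPM, against 2.13 CPM beyond 100 kb), and the level moved with the change. Among peaks within 1 kb of a start site, 0.888% fell in the lowest quartile of peaks by level and 42.6% in the highest. In that highest quartile 16.7% of the other peaks fell and 20.1% rose. With offsets trended by level, 10.8% of the peaks on a start site fell and 3.17% rose. From 1 kb outward, 7.7% to 8.6% fell under that scaling. In the highest quartile by level, 11.5% of peaks within 1 kb of a start site and 12.7% of the other peaks then fell. The excess of falls at start sites therefore rests on the scaling. Rises remained rarer on start sites than elsewhere with trended offsets too, 3.17% against 11% to 12.3% from 1 kb outward. Width followed the same order: 38.0% of peaks of 1000 bp or more fell and 6.45% rose, against 2.98% and 7.97% of those under 250 bp. Among autosomes, risen shares ran from 10.7% on chromosome 7 to 15.4% on chromosome 3. Fallen shares ran from 7.60% on chromosome 14 to 14.7% on chromosome 11.

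**Figure D3:**
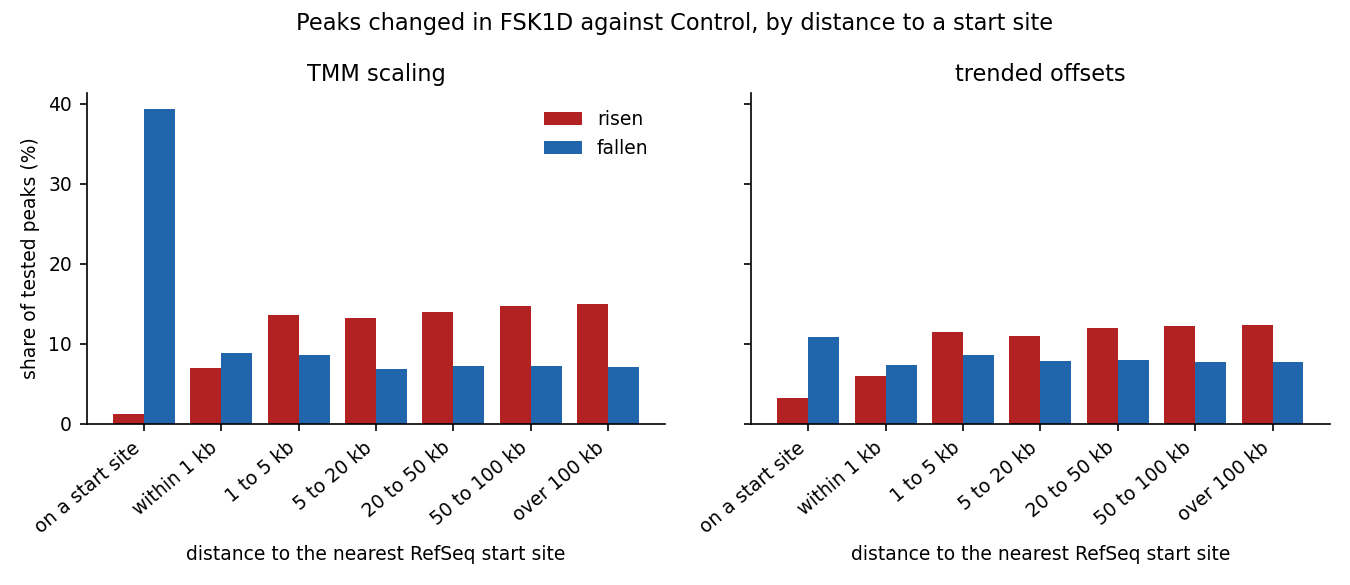
Bars give the share of tested peaks (y axis, %) that rose (red) or fell (blue) by distance to the nearest listed RefSeq start site (x axis). TMM scaling is on the left and offsets trended by level are on the right. Peaks on unlisted start sites are counted in the other bins. On a start site 39.3% fell with TMM and 10.8% with trended offsets, and rises are rarest there in both panels.

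Among peaks at or above the median level, averaged over all 10 libraries, the largest rises away from gene ends were sites that were nearly closed in Control. A 517 bp peak in the body of Mitf, a transcription factor that cAMP induces in melanocytes (chr6:97921401-97921917), held 5.31 and 5.81 CPM in FSK1D and 0 and 0.165 CPM in Control. The FSK1D libraries held 209 counts there and the Control libraries 2, which puts the ratio at 61.3 (95% interval 16.8 to 510, counting error only). The peak on the start site of Mitf did not pass (29.1 and 30.4 CPM in FSK1D, 31.8 and 32.9 CPM in Control; log2 −0.12, SE 0.124). A peak in Slc25a15, the mitochondrial ornithine carrier (chr8:22390843-22391462), stood at 15.1 and 14.2 CPM in FSK1D and 1.82 and 0.578 CPM in Control (log2 3.67, SE 0.274, edgeR adjusted p = 5.76e-18). One 23023 bp from Ino80c, a subunit of the INO80 chromatin remodeller (chr18:24081239-24081738), stood at 6.76 and 9.37 CPM in FSK1D and 0.303 and 0.661 CPM in Control. A peak in Cnga3, a cyclic-nucleotide-gated channel known from cone photoreceptors (chr1:37253311-37253732), stood at 6.59 and 4.94 CPM in FSK1D and 0 and 0.661 CPM in Control. One in Gnl2, a nucleolar GTPase (chr4:125035059-125035499), stood at 7.27 and 4.33 CPM in FSK1D and 0.202 and 0.496 CPM in Control. The sixth lay in the body of Rorb, an orphan nuclear receptor (chr19:19016721-19017514), at 3.63 and 2.34 CPM in FSK1D and 0.202 and 0.248 CPM in Control. These 6 peaks had log2 fold changes of 3.66 to 5.82 and were called under all 5 scalings.

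At gene ends the largest rise was 323 bp from the start site of Tlr9, the endosomal sensor of CpG DNA (chr9:106221602-106222275), with 7.43 and 9.17 CPM in FSK1D and 1.21 and 0.743 CPM in Control (log2 3.11, SE 0.317). A peak 794 bp from the end of Ddit4, which encodes the mTORC1 inhibitor REDD1 (chr10:59948542-59948881), stood at 10.8 and 13.9 CPM in FSK1D and 1.62 and 2.15 CPM in Control (log2 2.69). The start-site peak of Kcnk10, a background potassium channel (chr12:98577914-98578332), stood at 7.49 and 7.94 CPM in FSK1D and 2.02 and 1.16 CPM in Control (log2 2.31). One 415 bp from the end of the zinc finger gene Zfp871 (chr17:32765911-32766300) stood at 5.81 and 3.72 CPM in FSK1D and 0.606 and 0.496 CPM in Control (log2 3.10). In all 4 the lowest FSK1D library was above the highest Control library, as the rule for naming them required.

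Chosen in the same way, the 6 largest falls away from gene ends had log2 fold changes of −2.64 to −2.44, and 4 of them lay outside genes. The level rule averaged all 10 libraries, most of them forskolin-treated, so rises could pass it more easily than falls. Sizes of the named rises and falls are therefore not compared. A peak near Lep with a larger fall (chr6:29043555-29044250, log2 −2.68) was below that level. The peak at chr3:124092352-124092953, 228084 bp from the nearest gene end, stood at 0.503 and 0.866 CPM in FSK1D and 4.95 and 3.80 CPM in Control (log2 −2.64, SE 0.378). A peak in Rab3c, a GTPase of secretory vesicles (chr13:110097490-110097884), stood at 0.95 and 1.22 CPM in FSK1D and 6.97 and 6.52 CPM in Control (log2 −2.62). A peak in Plce1, the phospholipase C that Ras and Rap proteins activate (chr19:38599105-38599401), stood at 1.12 and 1.22 CPM in FSK1D and 5.96 and 8.09 CPM in Control (log2 −2.58). The other 3 had log2 fold changes of −2.60, −2.59 and −2.44 and lay 483769, 99238 and 189726 bp from a gene end. At gene ends the falls were led by peaks near Pdcd7 (log2 −2.01), the cyclin gene Ccna1 (−1.86), Hip1r (−1.77) and Upk3bl (−1.71). In these 10 peaks the FSK1D values were 0.161 to 0.304 of the Control values.

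To follow genes, counts were summed over all peaks in a gene or within 50 kb of its ends where no other gene was nearer. Of 17026 genes tested 1643 rose and 4751 fell (37.6% called, 9.65% risen and 27.9% fallen). This balance was a matter of scaling: rises were 25.7% of gene calls with TMM factors, 60.3% with library size alone, 55.8% with trended offsets, 21.1% with RLE size factors and 13.9% with TMM factors from peaks away from gene ends. The median of all genes was −0.13 with TMM and 0.02 with library size alone, so list medians are read against −0.13. Under all 5 scalings 1030 genes rose (6.05%) and 1783 fell (10.5%), and the genes named below as risen or fallen belong to these unless stated otherwise. Counts of list members are with TMM factors unless stated otherwise and are read against 9.65% risen and 27.9% fallen genes, and counts under all 5 scalings against 6.05% and 10.5%. Values are gene accessibility in CPM. Every test of a gene is edgeR's quasi-likelihood test with Benjamini-Hochberg adjustment over all genes.

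Of the genes that make, sense or remove cAMP, the phosphodiesterases come first. Of 18 phosphodiesterase genes 6 rose and none fell (median 0.05), Pde4b, Pde1a, Pde4d, Pde8b and Pde10a under all 5 scalings. Of the 395 peaks of the 18 genes 87 rose (22.0%), against 12.9% of all peaks, and most of these 87 lay in Pde4d, Pde10a and Pde4b. Pde4b, a cAMP-specific phosphodiesterase, reached 164 and 155 CPM in FSK1D, against 93.3 and 87.9 CPM in Control (log2 0.81, SE 0.073, adjusted p = 3.65e-07), and 15 of its 37 peaks rose. Pde1a, a calcium-dependent phosphodiesterase, stood at 89.2 and 91.7 CPM in FSK1D and 53.7 and 58.1 CPM in Control (0.69). Pde4d stood at 382 and 373 CPM in FSK1D and 285 and 273 CPM in Control (0.44), with 25 of 89 peaks risen. Pde8b, of high affinity for cAMP, stood at 59.6 and 59.7 CPM in FSK1D and 45.3 and 44.8 CPM in Control (0.41). Pde3b, through which insulin lowers cAMP in adipocytes, was at −0.16 and did not pass.

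Receptors and G proteins went both ways. Adrb3, the β3-adrenergic receptor of adipocytes, fell by 1.03 on the log2 scale (13.4 and 12.7 CPM in FSK1D, 26.3 and 26.9 CPM in Control; SE 0.135, adjusted p = 1.98e-05), and 4 of its 8 peaks fell. The inhibitory adenosine receptor gene Adora1 (−0.44), Gnai2 (−0.35), which encodes an inhibitory Gα subunit, and Gnas (−0.38), which encodes the stimulatory one, fell as well. Gipr, the receptor of the incretin GIP (29.3 and 31.6 CPM in FSK1D, 20.7 and 21.4 CPM in Control; 0.53), and Ptger2, a prostaglandin E2 receptor (0.49), rose. In all, 8 of 27 tested members rose and 6 fell, 2 and 4 of them under all 5 scalings (median −0.06), and with TMM factors from peaks away from gene ends 2 rose and 7 fell. Of 17 genes for protein kinase A, EPAC and anchors 6 fell and 1 rose (median −0.03). Under all 5 scalings 3 fell and none rose, and with library size alone the balance turned, with 6 risen and 3 fallen. Prkar1a, the regulatory subunit of type I protein kinase A, fell to 45.5 and 46.7 CPM in FSK1D, against 70.4 and 76.5 CPM in Control (−0.67, SE 0.088), and Prkaca, a catalytic subunit, fell too (−0.34). The 1 risen anchor gene, Akap6 (0.20, adjusted p = 0.0458), did not hold under all scalings and was not called when S1, S2, S5 or S6 was left out (adjusted p 0.0704 to 0.252).

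Of 32 CREB factors and cAMP-induced transcription factors 15 fell and 1 rose (median −0.18), 5 and 1 under all 5 scalings, and with library size alone 5 fell and 5 rose. Jund (−0.66), Atf2 (−0.61), Egr1 (−0.52), Creb1 itself (−0.51) and Atf4 (−0.42) fell. Creb1 stood at 71.1 and 79.4 CPM in FSK1D and 101 and 113 CPM in Control. The risen gene was Fosl1, which encodes the AP-1 subunit FRA-1, at 56.3 and 62.1 CPM in FSK1D and 42.3 and 38.5 CPM in Control (0.55, SE 0.098, adjusted p = 0.0003). Nr4a1, an immediate-early nuclear receptor, did not pass (−0.08, and 0.07 with library size alone).

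In the thermogenic list 7 of 32 tested members rose and 4 fell (median 0.04), 5 and 2 under all 5 scalings, and with TMM factors from peaks away from gene ends 5 rose and 6 fell. Ucp1, the uncoupling protein of brown fat, held 8.94 and 7.28 CPM in FSK1D and 4.44 and 3.63 CPM in Control (1.01, SE 0.22, adjusted p = 0.00148). Its most changed peak, 2331 bp from the start site (chr8:83287735-83288017), stood at 3.13 and 2.90 CPM in FSK1D and 0.505 and 0.991 CPM in Control (1.96). Ppargc1a, the coactivator PGC-1α, stood at 309 and 291 CPM in FSK1D and 216 and 244 CPM in Control (0.38, SE 0.06, adjusted p = 9.57e-05), and 15 of its 52 peaks rose. The rise lay away from the gene ends: a gene-end peak stood at 15.1 and 17.7 CPM in FSK1D and 16.2 and 18.3 CPM in Control and did not pass. With gene-end peaks only the gene was at −0.073. The listed start site nearest to that gene-end peak was of Dhx15, 74196 bp away, so these values do not report on the listed start site of Ppargc1a. The most changed peak of Ppargc1a (chr5:51867963-51868802) lay in the gene body, 300238 bp from its listed start site. That peak stood at 27.2 and 25.1 CPM in FSK1D and 9.39 and 10.3 CPM in Control (1.40, SE 0.147). The orphan receptor gene Esrrb (0.74), Tnfrsf9 (0.62) and Clstn3 (0.43) also rose. Esrra, the estrogen-related receptor through which PGC-1α raises mitochondrial genes, fell (72.4 and 84.6 CPM in FSK1D, 110 and 116 CPM in Control; −0.53), as did Gdf15, a stress hormone (−0.47). Cidea (0.10) and Dio2 (0.26), both common markers of brown fat, did not pass, and Dio2 rested on 1 peak with at most 2.02 CPM in the 4 libraries.

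In the de novo lipogenesis list 12 of 20 members fell and none rose, against a background of 27.9% fallen, with a median of −0.28. With library size alone 5 fell and 2 rose. Fasn, Acss2, Acaca, Pcx and Srebf1 fell under all 5 scalings. Fasn stood at 61.3 and 73.1 CPM in FSK1D and 109 and 116 CPM in Control (−0.74, SE 0.104, adjusted p = 3.83e-05), almost all of it from the start-site peak given above. Acaca, acetyl-CoA carboxylase, stood at 119 and 137 CPM in FSK1D and 170 and 176 CPM in Control (−0.43). Pcx, pyruvate carboxylase, stood at 188 and 200 CPM in FSK1D and 251 and 259 CPM in Control (−0.39), and Srebf1, the transcription factor of lipogenic genes, fell by 0.38. Of 24 fatty acid oxidation genes 8 fell and none rose (median −0.22), a share near that of all genes, and with library size alone 2 fell and 3 rose. The 2 fallen under all 5 scalings included Crat, which transfers acetyl groups to carnitine (85.6 and 93.7 CPM in FSK1D, 119 and 124 CPM in Control; −0.43). Of 15 genes of mitochondrial DNA and shape 7 fell and none rose (median −0.20; 3 fell and 2 rose with library size alone), led by the mitochondrial transcription factor gene Tfb2m (−0.55).

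Mature adipocyte genes fell in 10 of 20 cases and rose in none (median −0.29), and 19.7% of their 193 peaks fell, against 9.84% of all peaks. Aoc3, a surface amine oxidase abundant in adipocytes, stood at 27.4 and 33.4 CPM in FSK1D and 47.2 and 53.1 CPM in Control (−0.72, SE 0.11, adjusted p = 8.01e-05). Adig (−0.62), the insulin-responsive glucose transporter gene Slc2a4 (−0.50), the lipid droplet coat gene Plin1 (−0.49), Cfd, which encodes adipsin (−0.48), Car3 (−0.47) and lipoprotein lipase Lpl (−0.31) fell too. The call on Plin1 ended without S2 (adjusted p = 0.0686) and that on Slc2a4 without S5 (0.0663), and both held without any 1 of the other libraries. Adipoq as a whole gene fell by 0.34 but not under all scalings, and without S2 its adjusted p was 0.0969; its start-site peak fell by 1.04. Fabp4, a fatty acid carrier, was at −0.02 and did not pass. Of 21 adipogenic transcription factors 9 fell and none rose (median −0.20), 5 under all 5 scalings, and 2 rose with library size alone. Cebpa stood at 113 and 124 CPM in FSK1D and 154 and 185 CPM in Control (−0.51, SE 0.082), and Ncor1 (−0.49), Nr3c1 (−0.47), Stat5a (−0.46) and Klf9 (−0.35) fell. Pparg, the master regulator of the adipocyte, stood at −0.17 with TMM factors (adjusted p = 0.0281) and −0.014 with library size alone. It was not called with trended offsets, nor without S2, S5 or S6 (adjusted p 0.0614 to 0.20).

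Of 17 tested lipid droplet and lipolysis genes 3 rose and 5 fell (median −0.09), a fallen share near the 27.9% of all genes, and with library size alone 4 rose and 3 fell. Plin2, a droplet coat protein (125 and 124 CPM in FSK1D, 93.4 and 101 CPM in Control; 0.35), and Abhd5, the coactivator of adipose triglyceride lipase (0.36), rose. Pnpla2, which encodes that lipase (−0.46), and Lipe, hormone-sensitive lipase (−0.32), fell, though the gene-end peaks of Lipe alone gave −0.036 (adjusted p = 0.824). With gene-end peaks only, Plin2 was at −0.231 and Abhd5 at −0.24, so their rise lay away from the gene ends. Of 15 triglyceride synthesis genes 2 rose and 6 fell (median −0.18; 3 rose and 1 fell with library size alone), with Gpat3 (0.35) risen and Gpd1 (−0.37) fallen under all 5 scalings. Insulin signalling genes fell in 10 of 20 cases and rose in none (median −0.19), and 6 fell and 2 rose with library size alone. Under all 5 scalings 5 fell, among them the receptor gene Igf1r (101 and 98.8 CPM in FSK1D, 130 and 136 CPM in Control; −0.41), Pik3r1, a regulatory subunit of PI3 kinase (−0.41), Irs1 (−0.34) and Foxo3 (−0.31). Glucose uptake and glycolysis genes mostly did not pass: 3 of 22 rose and 2 fell (median −0.09; none rose and 6 fell with TMM factors from peaks away from gene ends), and only Slc2a4 was called under all 5 scalings.

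**Figure D4:**
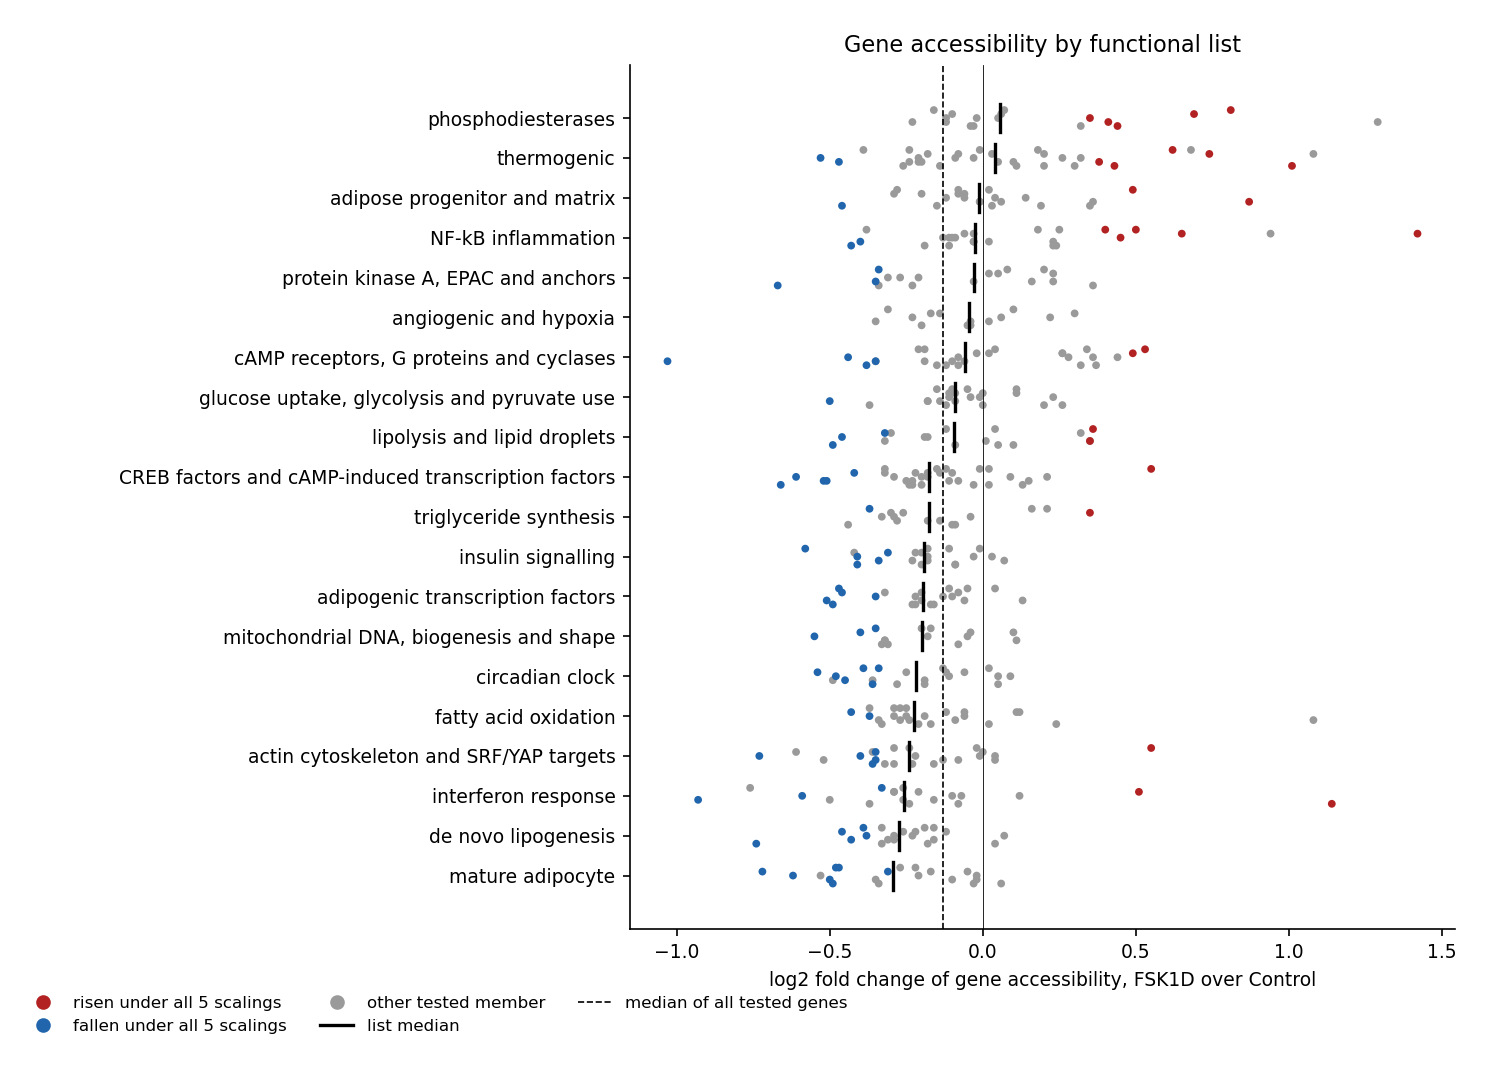
Each point is a tested member of a functional list, placed by its log2 fold change of gene accessibility, FSK1D over Control (x axis). Red and blue mark members risen or fallen under all 5 scalings, thick bars the list medians (0.05 for phosphodiesterases at the top, −0.29 for mature adipocyte genes at the bottom) and the dashed line the median of all tested genes (−0.13).

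Clock genes fell in 11 of 20 cases and rose in none (median −0.22), and with library size alone 6 fell and 4 rose. Tef stood at 253 and 277 CPM in FSK1D and 378 and 392 CPM in Control (−0.54, SE 0.061, adjusted p = 4.05e-06). Nr1d1 and Nr1d2, which encode the REV-ERB repressors, fell (−0.45 and −0.48), as did Ciart (−0.39), Cry2 (−0.36) and Per1, which CREB can induce (−0.34). All 6 were called under all 5 scalings. Nr1d1 stood at 161 and 168 CPM in FSK1D and 225 and 223 CPM in Control. Of the core activators, Clock (−0.36) and Arntl (−0.19) fell with TMM but not under all scalings.

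In the actin list, which holds SRF and YAP targets, 11 of 23 tested members fell and 1 rose (median −0.24). Under all 5 scalings 5 fell and 1 rose, and with library size alone 5 fell and 3 rose. Acta2, smooth muscle actin, stood at 28.8 and 33.2 CPM in FSK1D and 49.9 and 53.2 CPM in Control (−0.73, SE 0.107, adjusted p = 5.22e-05), and Flna (−0.40), Srf (−0.36), Actb (−0.35) and the matricellular gene Ccn1 (−0.35) fell. The risen member, Cnn1 (0.55), stood at 11.7 and 13.5 CPM in FSK1D and 8.58 and 8.67 CPM in Control and was not called without S1, S2 or S6 (adjusted p 0.051 to 0.0958). Of 22 progenitor and matrix genes 3 rose and 3 fell (median −0.01), and with library size alone 7 rose and 1 fell. Dcn, the proteoglycan decorin, stood at 44.5 and 42.9 CPM in FSK1D and 26.3 and 21.8 CPM in Control (0.87, SE 0.124, adjusted p = 4.17e-05), with 5 of 13 peaks risen, although gene-end peaks alone gave −0.814. Col3a1, a fibrillar collagen, rose by 0.49 and Zfp521, a repressor of adipogenesis, fell by 0.46.

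Inflammatory genes went in both directions. Of 25 NF-kB list members 7 rose and 3 fell (median −0.03), 5 and 2 under all 5 scalings. Lcn2 (1.42), the chemokine genes Ccl20 (0.65) and Cxcl5 (0.50), the prostaglandin synthase gene Ptgs2 (0.45) and Bcl3 (0.40) rose. The NF-kB subunit gene Nfkb2 (−0.43) and Tnfaip3, which encodes the inhibitor A20 (−0.40), fell. Ptgs2 stood at 84.8 and 87.8 CPM in FSK1D and 65.3 and 61.2 CPM in Control. In the interferon list 6 of 19 tested members fell and 2 rose (median −0.26). Ifit2 stood at 28.6 and 31.2 CPM in FSK1D and 54.2 and 59.7 CPM in Control (−0.93, SE 0.13, adjusted p = 3.27e-05), and Ifit3 (−0.59) and Irf1 (−0.33) fell. Its neighbour Ifit1 went the other way on 1 weak peak (1.14), a call that ended without S1 or S5 (adjusted p = 0.139 and 0.182). Rsad2, the antiviral enzyme viperin, rose to 34.9 and 36.0 CPM in FSK1D, against 25.2 and 24.7 CPM in Control (0.51), but was at −0.112 with gene-end peaks only. No member of the 14 angiogenic and hypoxia genes was called under all 5 scalings (2 rose and 4 fell with TMM, 4 rose and none fell with library size alone, median −0.05).

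**Figure D5:**
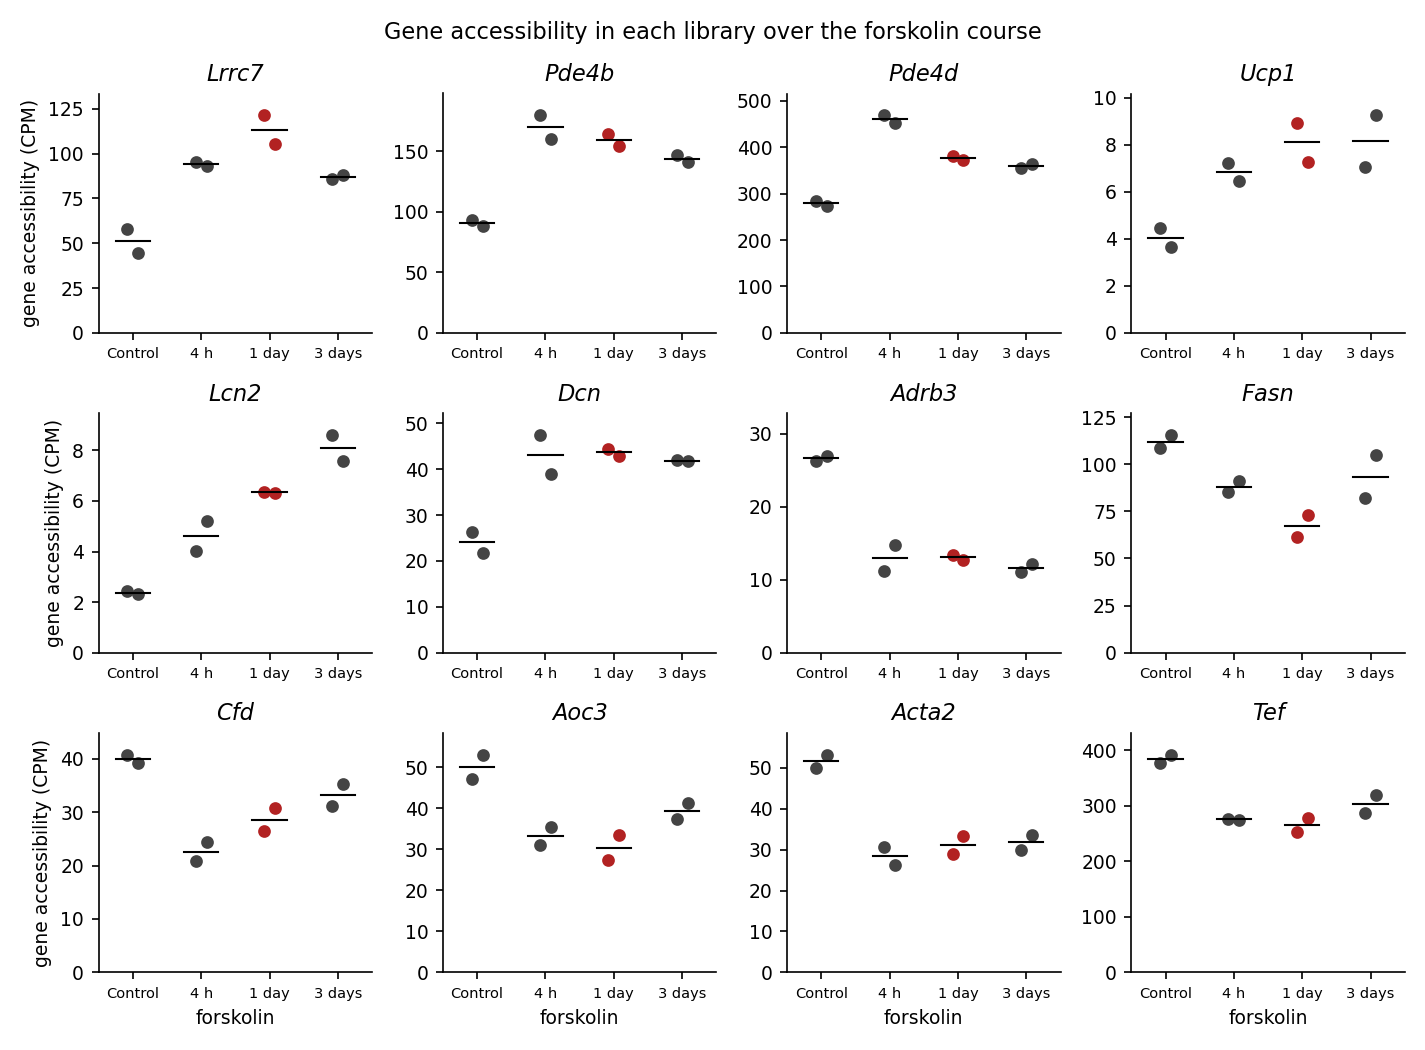
Points give gene accessibility (CPM, y axis) in each of 2 libraries per group along the forskolin course (x axis, Control, 4 h, 1 day in red, 3 days), and lines give the means. Lrrc7, the phosphodiesterases, Ucp1, Lcn2 and Dcn lie above Control at 1 day and Adrb3, Fasn, Cfd, Aoc3, Acta2 and Tef below it. These genes were chosen as called in that comparison.

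Some genes held many changed peaks. Lrrc7, which encodes a protein of the postsynaptic density and was in no list, had 17 of 27 peaks risen and none fallen, and as a whole stood at 121 and 105 CPM in FSK1D and 58.1 and 44.4 CPM in Control (1.15, SE 0.105, adjusted p = 3.8e-07). Chst11, a chondroitin sulfotransferase gene, had 17 of 54 peaks risen (gene 0.37, and −0.036 with gene-end peaks only), and Pde10a 17 of 49 (0.35). Slit3, a guidance ligand gene, had 19 risen and 6 fallen of 72 peaks, and its sum did not pass (0.13). The most fallen peaks were in Rad51b, a recombination gene, with 17 of 77 (gene −0.28), and Gse1 had 13 of 72 (−0.16). Bahcc1 had 11 of 23 peaks fallen and none risen (287 and 320 CPM in FSK1D, 384 and 414 CPM in Control; −0.40), and Nuak1, an AMPK-related kinase gene, 10 of 27 (−0.46). Of these fallen genes Bahcc1 and Nuak1 were called under all 5 scalings, and Gse1 was not called without S2 or without S5 (adjusted p = 0.205 and 0.227). Genes with more peaks can gain more calls, and these counts are not corrected for that.

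The labels give 4 h as the shorter exposure, and the direct contrast of FSK1D with FSK4h, which shares its FSK1D libraries with the comparison above, called fewer peaks, with 3070 higher at 1 day (2.58%) and 3557 lower (2.99%), 5.57% in all. Among genes 340 were higher (2.0%) and 581 lower (3.41%), 5.41% in all. Pde4b did not pass (164 and 155 CPM at 1 day, 180 and 160 CPM at 4 h; −0.09), and Pde4d was lower at 1 day (382 and 373 CPM, against 469 and 453 CPM at 4 h; −0.29, adjusted p = 0.00119). Pde8b went the other way, at 59.6 and 59.7 CPM at 1 day, against 44.8 and 43.1 CPM at 4 h (0.44, adjusted p = 0.00601). Fasn was lower at 1 day than at 4 h (61.3 and 73.1 CPM, against 85.4 and 90.9 CPM; −0.39, adjusted p = 0.028). With TMM factors from peaks away from gene ends Fasn was not called in this contrast. Clstn3 had 62.0 and 63.6 CPM at 1 day and 95.3 and 99.7 CPM at 4 h (−0.63, adjusted p = 0.000204). The Lep gene-end peak stood at 6.82 and 6.52 CPM at 1 day, against 3.29 and 4.41 CPM at 4 h (0.79, adjusted p = 0.0192), and below Control at both times. Rsad2 stood at 34.9 and 36.0 CPM at 1 day and 25.1 and 26.6 CPM at 4 h (0.46, adjusted p = 0.01). These counts rested on every library: leaving out 1 of S3, S4, S5 and S6 in turn left 2043 to 2795 peaks and 97 to 258 genes, and DESeq2 called 2560 peaks.

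Markers of other cell types were summed in the same way. The summed level of 11 tested macrophage markers was 233 and 237 CPM in FSK1D and 222 to 228 CPM in Control, with 2 risen and 2 fallen (median 0.25). Csf1r, the receptor of macrophage colony-stimulating factor, held 16.5 and 15.4 CPM in FSK1D and 7.27 and 9.0 CPM in Control (0.96, SE 0.155), and Cx3cr1 rose by 0.41, while Adgre1 had no tested peak. Endothelial markers summed to 274 to 291 CPM in FSK1D and 270 to 285 CPM in Control (median 0.32), with 3 of 10 risen and 2 fallen, Cdh5 (0.80) and Cldn5 (0.55) risen under all 5 scalings. Pericyte markers summed to 198 to 200 CPM in FSK1D and 175 to 189 CPM in Control (median 0.29), with Notch3 (0.72) and Kcnj8 risen and Mcam (−0.52) fallen. Skeletal muscle markers summed to 89.2 to 91.0 CPM in FSK1D and 80.0 to 88.0 CPM in Control (median 0.24, Pax7 risen by 0.51, no tested peak at Myod1 and Myf5). Bone and cartilage markers summed to 504 to 505 CPM in FSK1D and 461 to 469 CPM in Control (median −0.03, Spp1 risen by 0.32). Markers of dividing cells summed to 400 to 407 CPM in FSK1D and 476 to 483 CPM in Control, with 3 of 8 fallen, Cdk1 (−0.41) under all 5 scalings. Whether shifts in cell make-up had a part in the gene lists above was not tested, and a smaller share of fully differentiated cells cannot be told apart from less open chromatin in each cell.

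The counts of calls depended on single libraries. Without S2, 13999 peaks and 2777 genes were called, and without S5 14137 and 2729, with the lone library of the group taken to vary like the others. DESeq2 called 18864 peaks and 6113 genes.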

How the data were processed

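ATAC-seq counts per peak were deposited by the authors as raw counts, not normalized, with 1 column per library. The submitters' processing notes list, with no versions or order, deepTools, featureCounts, MACS2, Picard, SAMtools, Bowtie2 and fastp, and the builds mm10 and GRCm38. Peak merging, duplicate handling and any shift of reads for the transposase are not stated in them. Columns are named S1 to S10 with their group, without a replicate number.

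All peaks entered 1 fit over 10 libraries in edgeR 4.0.16 under R 4.3.3 (TMM factors, filterByExpr, robust quasi-likelihood F test), with limma 3.58.1 loess offsets and DESeq2 1.42.0 among the alternatives. The default filter asks for about 10 counts in enough libraries and 15 in total. The square root of the median dispersion was 0.163. CPM are counts scaled to TMM library sizes. Intervals on ratios and shares are at 95% and cover counting error only. The procedure was also run on simulated counts with known, symmetric fold changes. That simulation held no shift by level, so it does not bear on the choice of scaling.

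Gene bounds came from RefSeq (GRCm38.p6) without strand, so a gene-end peak, within 1 kb of either end, can be at the start or the far end of a gene. Start sites came from RefSeq promoter sequences of 17492 of 21887 protein-coding genes. None was used on chromosomes 18 and Y. Each peak was given to 1 gene at most.

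Members and lists were chosen with earlier results of these data known. Named by rule were the 6 largest risen and fallen peaks away from gene ends and the 4 at gene ends (called, library groups not overlapping, mean level over all 10 libraries at or above the median, 1 per gene), up to 2 risen and 2 fallen members per list, the 5 genes with the most risen and the most fallen peaks, and a set of adipocyte and cAMP genes. Other list members and start sites were named after their values were seen. A few genes chosen this way are not reported here.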

Additional observations from a re-analysis of the deposited data

Results flagged for a closer look

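The results below differed between 1 day and 4 h of forskolin in the direct contrast (FSK1D minus FSK4h, log2, edgeR adjusted p below 0.05 over all genes or peaks). Of named genes, 13 were lower at 1 day: Clstn3 at −0.63, Egln3 at −0.43, Fasn at −0.39, Egr1 at −0.38, Plin2 at −0.37, Fosl1 at −0.34, Gpat3 at −0.32, Pcx at −0.32, Pde4d at −0.29, Pde10a at −0.27, Nr4a1 at −0.23, Abhd5 at −0.21 and Pparg at −0.21. The other 3 were higher at 1 day: Rsad2 at 0.46, Irf1 at 0.24 and Lpin1 at 0.21. Of named peaks, 4 were lower at 1 day, the one in Rorb at −1.44, the Pde4b gene-end peak at −2.03, the most changed Pde4d peak at −0.54 and the Fasn start-site peak at −0.39, and the Lep gene-end peak was higher at 0.79.

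The Rorb peak held 3.63 and 2.34 CPM at 1 day and 7.23 and 8.88 CPM at 4 h. The Pde4b gene-end peak held 0.615 and 1.32 CPM at 1 day and 5.39 and 2.66 CPM at 4 h. All 16 genes kept their sign when 1 of S3, S4, S5 and S6 was left out, but 3 to 6 of them stayed called, Clstn3 in each of these 4 fits. Of the 5 peaks 1 to 3 stayed called. Scaled by library size alone or by trended offsets, 14 genes and all 5 peaks stayed called, and with DESeq2 14 genes and 2 peaks. With TMM factors from peaks away from gene ends 9 of the 16 genes and 4 of the 5 peaks stayed called.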

How the results depend on the processing

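No paired analysis was possible because the columns cannot be tied to the replicate numbers in the labels. Leaving out 1 library gave 13999 to 20233 peaks and 2729 to 5132 genes for FSK1D against Control, and 2043 to 2795 peaks and 97 to 258 genes for FSK1D against FSK4h. The 4 h contrast gave 10848 peaks and 2711 genes with only its 2 groups in the fit, 2560 peaks with DESeq2, 416 genes with TMM factors from peaks away from gene ends and 111 genes with gene-end peaks only. The share of fallen, risen and uncalled peaks at gene ends was 16.6%, 5.57% and 14.3% with trended offsets and 35.7%, 4.68% and 13.9% with library size alone. It was 38.3%, 3.71% and 10.6% with TMM factors from peaks away from gene ends, 36.7%, 2.23% and 9.21% within 500 bp, and 34.9%, 1.92% and 8.70% within 1 kb of start sites, the last chosen after seeing the data. The cause of these shifts was not tested.

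Signs turned for named genes with gene-end peaks only (Abhd5 −0.24, Chst11 −0.036, Dcn −0.814, Egln3 −0.292, Mitf −0.12, Plin2 −0.231, Ppargc1a −0.073, Rsad2 −0.112, Slc16a1 −0.154, Slc2a1 −0.148 and Slit3 −0.195). They turned with library size alone and trended offsets for Nr4a1 (0.074 and 0.047) and Pdk4 (0.061 and 0.053), with TMM factors from peaks away from gene ends for Cidea (−0.001) and Mitf (−0.01), with assignment within 10 kb for Slc16a1 (−0.027) and on leaving out libraries for Dio2 (−0.195 without S2 to 0.825 without S1). Among named peaks, that of Dio2 ran from −0.194 without S2 to 0.826 without S1, the Ppargc1a gene-end peak from −0.193 without S6 to 0.022 without S2 and 0.035 without S5, with 0.081 by library size alone. The Pdk4 gene-end peaks ran from −1.518 without S2 to 0.446 without S1 for the weaker and were at 0.21 with trended offsets for the stronger, and the Mitf start-site peak at 0.034 and 0.066 with library size alone and trended offsets. With gene-end peaks only, the calls on Bcl3 (0.485), Clstn3 (0.541), Cnn1 (0.899), Col3a1 (0.604) and Pde4b (1.811) ended at log2 fold changes as large as with all peaks (adjusted p 0.0574 to 0.228), as did those on Bnip3 (−0.313) and Pparg (−0.301). The call on Lipe ended at −0.036 (adjusted p = 0.824). With 2 libraries per group, small changes of weak peaks may go uncalled.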
